A study of Homo sapiens with 9 samples.

Results

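Ribosome biogenesis and RNA polymerase I are described here through 50 genes, chosen by symbol and grouped by what their proteins do. They comprise 6 genes of RNA polymerase I and its initiation factors, 8 genes of box C/D and H/ACA small nucleolar ribonucleoproteins (snoRNPs), 15 small subunit assembly factors, 15 large subunit assembly factors and 6 nucleolar proteins of wider function. All 50 were among the 17492 genes of the authors' table, and all 50 were among the 12832 genes that passed the filter on low counts. RNA was sequenced from HCCLM3, an established human hepatocellular carcinoma cell line labelled as highly metastatic and wild type. The cells received quercetin, a plant flavonol, at 50 µM or at 100 µM, or DMSO as the control, with 3 libraries for each group. How long the cells were treated was not given in the sources used here. Libraries held 20061136 to 21599805 estimated counts. The labels do not state whether replicate libraries stem from independent cultures, and p-values therefore reflect only the spread among these libraries, which could be technical.

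A cell builds ribosomes in the nucleolus. RNA polymerase I transcribes one long precursor of the 18S, 5.8S and 28S ribosomal RNAs, snoRNPs guide methylation and pseudouridylation of that precursor, and a large set of assembly factors folds and cuts it into a small and a large subunit. The pathway uses much of a growing cell's RNA synthesis, and enlarged nucleoli are a long-known feature of hepatocellular carcinoma. The measurements below are of messenger RNAs that encode these proteins, not of ribosomal RNA, which oligo(dT) selection largely removes. In RNA from a whole culture, fewer cells of a kind and less RNA per cell cannot be told apart.

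A pair of libraries stood apart from the others of their groups. The chi-square per gene between replicates was 84.0 and 86.2 for 100 µM replicate 3, against 5.04 between the other 2 libraries at 100 µM, and 27.7 and 27.5 for control replicate 1, against 3.57 between the other 2 controls. The 50 genes moved with these libraries. In 100 µM replicate 3, 35 of the 50 genes had their lowest level of the group, and in control replicate 1, 40 of the 50 did, where 43.5% and 43.2% of all genes tested had theirs. Results are therefore also given without both libraries. Markers of other cell types were measured as well. Summed over the list, 8 fibroblast markers reached 57.8 to 87.2 TPM in the control, 66.2 to 73.6 TPM at 50 µM and 63.7 to 110 TPM at 100 µM, most of it LUM. The 9 leukocyte markers reached at most 4.71 TPM in any library. Of 2 fibroblast markers tested 1, DCN, was lower at 50 µM (edgeR adjusted p = 0.00747) and 0 were called at 100 µM over control. None of these markers was at 0 in every library. The 6 endothelial markers summed to 19.9 to 22.4 TPM in the control, 10.3 to 12.3 TPM at 50 µM and 11.1 to 14.3 TPM at 100 µM, most of it PECAM1. Of the 3 tested 1, PECAM1, was lower at both doses (edgeR adjusted p = 0.00286 at 50 µM and 0.000864 at 100 µM). Any part of these other cell type markers in the results was not tested. The 13 hepatocyte and hepatocellular carcinoma markers in the table summed to 5810 to 6760 TPM in the control, 5181 to 5322 TPM at 50 µM and 4052 to 6087 TPM at 100 µM, most of it KRT8 (mean 3889 TPM). Some others were low: 2 were under 1 TPM in every library, and APOB and TF averaged 1.31 and 2.66 TPM in the control. Of the 11 tested, 3 were higher and 3 lower at 50 µM, and 4 higher and 1 lower at 100 µM. These were 54.5% and 45.5% called, where 11.6% and 21.0% of all genes were.

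The first comparison asks what the higher dose did to these genes. At 100 µM, 38 of the 50 genes fell relative to the control, 0 rose, and 12 did not pass the test (edgeR quasi-likelihood test on counts, Benjamini-Hochberg adjusted p under 0.05 over all genes tested). Of all genes tested, 10.3% were lower and 10.7% higher at that dose, 21.0% in either direction. All 50 log2 fold changes were negative, from -0.92 for RRS1 to -0.079 for GNL3, with a median of -0.45, a difference in level of -27.0%, where the median of all genes tested was 0.00087. In 44 of the 50 genes the 3 libraries at 100 µM lay below all 3 controls, judged on TMM-scaled counts, as they did in 18.6% of all genes tested. At an unadjusted p under 0.05 the edgeR test gave 45 genes lower and 0 higher, where 18.4% of all genes were lower and 18.2% higher. DESeq2 with adjusted p gave 43 lower and 0 higher, and limma-voom gave 37 lower and 0 higher, when 9.78% and 10.3% of all genes were lower. Without both libraries that stand apart, 47 genes were lower and 0 higher, when 48.6% of all genes were called. The count was 22 without control replicate 2, 19 without control replicate 3 and 20 when the 2 groups were fitted alone, when 3.82%, 3.52% and 3.45% of all genes were lower. The 19 genes called in all 21 alternatives were POLR1B, NOP56, NOLC1, HEATR1, UTP15, WDR43, UTP20, DDX10, PNO1, TSR1, RRP12, RRS1, BRIX1, NOP16, NIP7, NOC3L, DDX56, LYAR and DDX21. The other 19 all lost the call without control replicate 3, and all of those but POLR1E, DKC1 and PPAN lost it without control replicate 2. Calls were kept in the fewest alternatives for GAR1 (7 of 21) and for FBL, WDR75 and NOC2L (9 each).

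**Figure D1:**
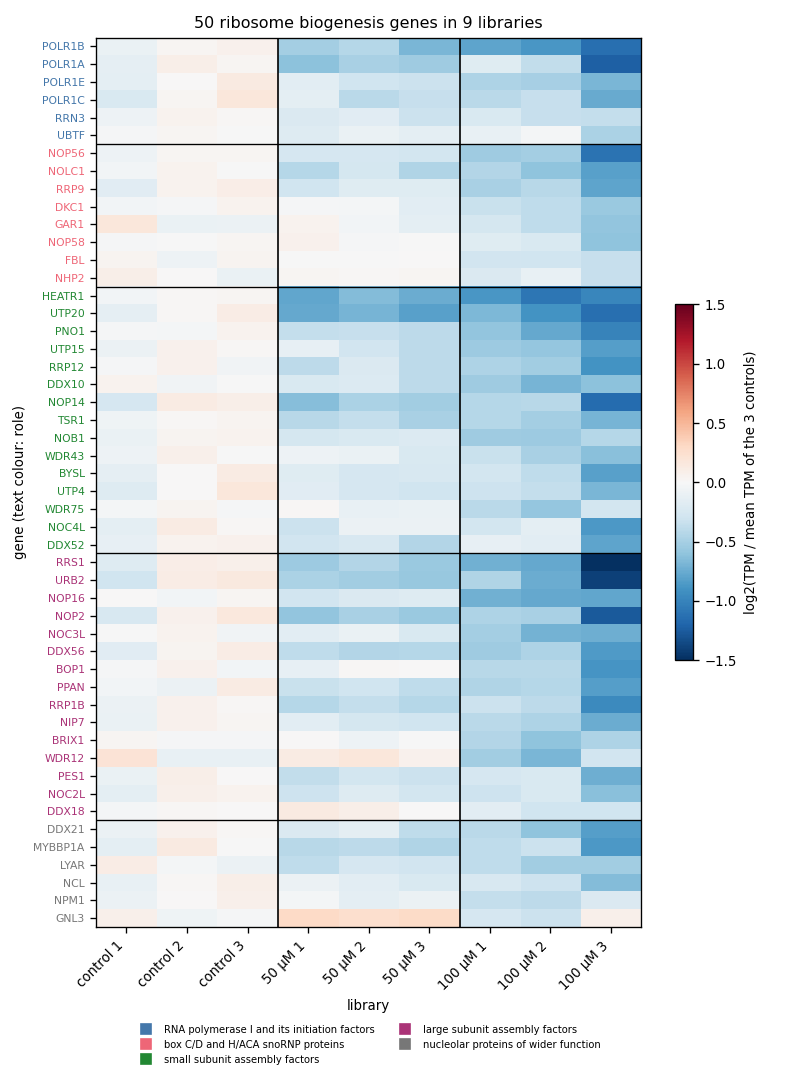
Level of each of the 50 genes (rows, grouped by role) in each of the 9 libraries (columns: control, 50 µM and 100 µM), as the log2 ratio of TPM to the mean of the 3 controls. Blue cells, below the control mean, fill most of the 100 µM columns, the darkest column is 100 µM replicate 3, and GNL3 is the reddest row at 50 µM.

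At 50 µM fewer of the genes passed the test. Here 6 genes fell, POLR1B, NOLC1, HEATR1, UTP20, PNO1 and TSR1, and 0 rose, with 44 not past the test, where 6.31% of all genes were lower and 5.28% higher. Of the log2 fold changes, 41 were negative and 9 positive, from -0.70 for UTP20 to 0.34 for GNL3, with a median of -0.20, a difference in level of -12.8%, and a median of 0.0033 over all genes tested. In 25 genes all 3 libraries at 50 µM lay below all 3 controls and in 2 genes, DDX18 and GNL3, they lay above, where 24.6% and 24.4% of all genes tested did so. At an unadjusted p under 0.05 edgeR gave 21 genes lower and 1 higher, where 17.0% of all genes were lower and 15.2% higher. DESeq2 with adjusted p gave 11 lower and 0 higher, and limma-voom gave 6 lower and 0 higher, when 7.69% and 5.84% of all genes were lower. The count depended on the libraries kept: 10 genes were lower without control replicate 1, when 11.1% of all genes were lower, and 21 without 100 µM replicate 3, which enters the shared estimate of the spread, when 18.2% were. It was 2 without control replicate 2, control replicate 3, 50 µM replicate 1 or 50 µM replicate 2, and 1, HEATR1, without 50 µM replicate 3, when 0.331% to 0.578% of all genes were lower. Without both libraries that stand apart, 34 genes were lower and 2, GNL3 and WDR12, higher, when 57.4% of all genes were called. HEATR1 passed in all 21 alternatives run, UTP20 in 20, POLR1B and TSR1 in 15, NOLC1 in 13 and PNO1 in 9.

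Between the doses, 10 genes were lower at 100 µM than at 50 µM and 0 were higher, where 1.89% of all genes were lower and 2.25% higher, 4.15% in either direction. The 10 were POLR1B, DKC1, WDR43, PNO1, BOP1, WDR12, BRIX1, NOP16, NOC3L and DDX18. Of the 50 differences 49 were negative, POLR1A being the exception at 0.0079, and the median was -0.27 on the log2 scale, with 0.012 over all genes tested. In 34 genes the libraries at 100 µM all lay below those at 50 µM, as in 14.4% of all genes tested. At an unadjusted p under 0.05 edgeR gave 29 lower and 0 higher, where 10.6% of all genes were lower and 11.4% higher. DESeq2 gave 22 and 0, and limma-voom 9 and 0, when 3.97% and 1.77% of all genes were lower. The number of calls depended on which library was left out. With any 1 library at 50 µM left out, 0 genes were called, when 0.331% to 0.516% of all genes were. There were 3 without control replicate 2 or 3 or 100 µM replicate 1 or 2, when 1.28% to 1.91% of all genes were called. Without 100 µM replicate 3 there were 24, when 27.5% of all genes were called, 13.4% lower. The comparisons share groups, so the falls at 100 µM against control and against 50 µM are not separate evidence.

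The summed level of the 50 genes, per length, was lower at each dose. It was 5740, 6064 and 6202 TPM in the 3 control libraries, 5498, 5382 and 5310 TPM at 50 µM and 4667, 4528 and 4181 TPM at 100 µM. No group overlapped another. Relative to the control the mean differed by -10.1% at 50 µM and by -25.7% at 100 µM, and in FPKM by -5.68% and -23.3%. NPM1 alone made up a large share of the sum, and without it the differences were -11.5% and -27.6%. In TMM-scaled counts the group mean of 40 of the 50 genes was lower at each step of dose, as it was for 19.5% of all genes tested, and 49 of the 50 had their lowest mean at 100 µM.

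**Figure D2:**
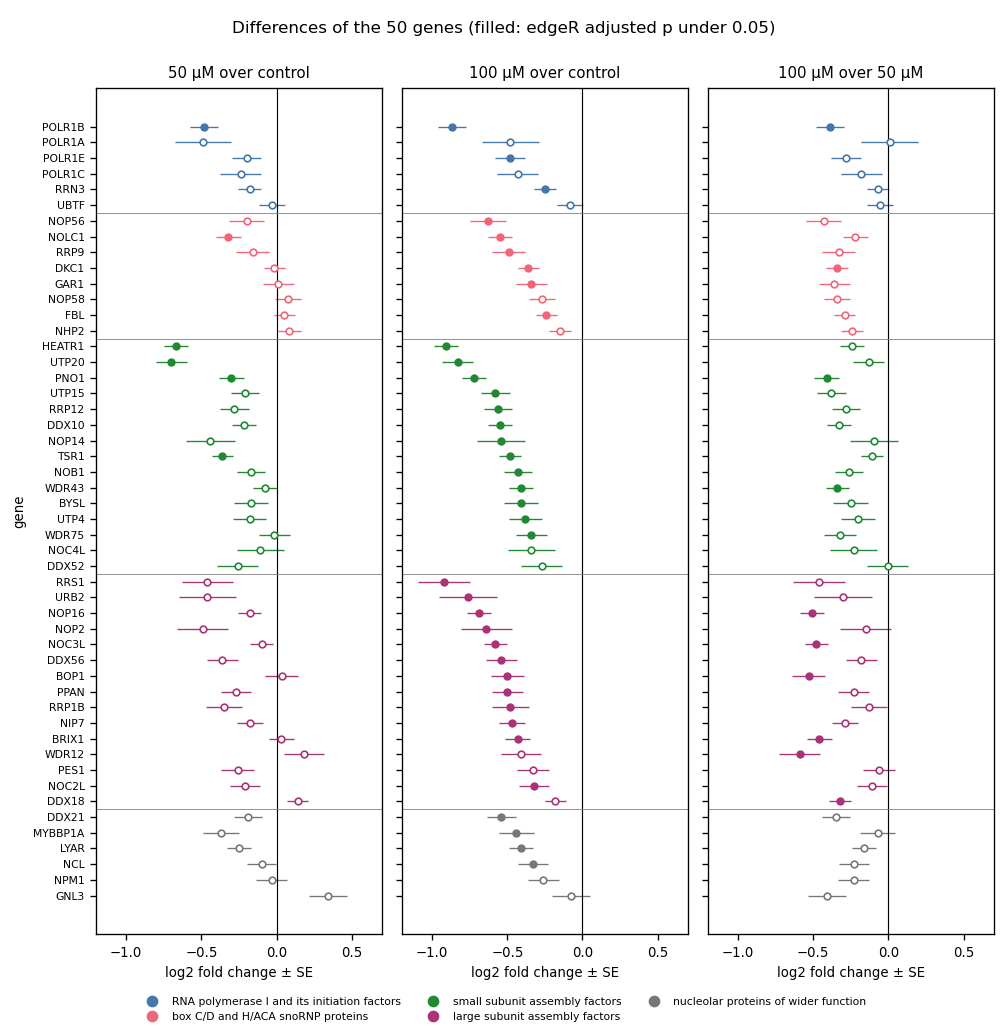
Log2 fold change with its standard error for each gene, at 50 µM over control, 100 µM over control and 100 µM over 50 µM (panels), coloured by role; filled points passed the edgeR test. All points lie left of 0 at 100 µM over control, from -0.92 to -0.079, while 9 of 50 lie right of 0 at 50 µM over control.

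Among RNA polymerase I and its initiation factors all 6 log2 fold changes were negative at both doses. At 100 µM 3 of the 6 genes fell, POLR1B, POLR1E and RRN3, and the median log2 fold change of the 6 was -0.46. POLR1B (gene 84172, GRCh38 chromosome 2, 112542036 to 112579818) encodes the second-largest subunit, which forms part of the catalytic centre. It had 17.2, 18.9 and 19.4 TPM in the control, 13.0, 13.8 and 11.5 TPM at 50 µM, and 10.7, 10.1 and 8.47 TPM at 100 µM. The 3 groups did not overlap, and POLR1B is 1 of the 2 genes, with PNO1, that passed the test in all 3 comparisons. It fell 1.4-fold at 50 µM (log2 -0.48 ± 0.0928 SE, edgeR adjusted p = 0.0167) and 1.83-fold at 100 µM (-0.87 ± 0.0937, edgeR adjusted p = 0.000661), and was 1.31-fold lower at 100 µM than at 50 µM (edgeR adjusted p = 0.0488). Leaving out control replicate 2 or 3 ended the call at 50 µM, with edgeR adjusted p of 0.0882 and 0.0888, as did leaving out 50 µM replicate 1 (0.0739), 2 (0.0547) or 3 (0.0901).

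POLR1E (gene 64425, chromosome 9, 37485948 to 37510380) encodes a subunit of the polymerase I specific part of the enzyme. Its levels were 60.5, 67.3 and 73.9 TPM in the control, 60.4, 54.7 and 53.7 TPM at 50 µM, and 48.7, 47.7 and 41.8 TPM at 100 µM. The 100 µM libraries were all below the rest, while 50 µM and control met at their edges. It fell 1.4-fold at 100 µM (-0.48 ± 0.0991, edgeR adjusted p = 0.00963; 0.0501 without control replicate 3). RRN3, which recruits the polymerase to the ribosomal DNA promoter, averaged 40.4 ± 2.03 TPM at 100 µM and 50.1 ± 2.3 TPM in the control (SD, n = 3 each) and fell 1.19-fold (edgeR adjusted p = 0.0432), a call kept in 10 of 21 alternatives.

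With all libraries the other 3 genes did not pass the test at either dose. POLR1C, a subunit shared with RNA polymerase III and the most abundant of the 6, had 73.4, 87.6 and 96.1 TPM in the control, 77.5, 64.5 and 67.2 TPM at 50 µM, and 65.0, 67.6 and 50.6 TPM at 100 µM. All 3 libraries at 100 µM lay below the controls, but the spread in both groups was wide and the difference of -0.43 ± 0.136 gave an edgeR adjusted p of 0.0511. POLR1A, the largest catalytic subunit, had 14.1 and 12.4 TPM in the first 2 libraries at 100 µM and 6.87 TPM in replicate 3. Its difference at 100 µM was -0.48 ± 0.189 with all libraries (edgeR adjusted p = 0.0974), -0.25 without that replicate (0.0532) and -0.33 without both libraries that stand apart (0.000224). At 50 µM it was -0.49 ± 0.189 with all libraries (edgeR adjusted p = 0.111), and without that replicate it passed, at -0.48 (0.00161). It is the 1 gene called higher at 100 µM than at 50 µM when both libraries that stand apart were left out (0.24, edgeR adjusted p = 0.00243). UBTF, which coats active ribosomal DNA, differed least among the 6, at 51.9 ± 8.12 TPM at 100 µM and 59.3 ± 0.909 TPM in the control (log2 -0.084, edgeR adjusted p = 0.512).

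The snoRNP genes were near control at 50 µM and mostly lower at 100 µM. At 100 µM 6 of the 8 fell, with a median of -0.35. At 50 µM 1 fell, 4 log2 fold changes were negative and 4 positive, and the summed level differed from the control by -5.22% in TPM and -0.61% in FPKM, against -23.6% and -21.2% at 100 µM. Between the doses 8 of 8 had an unadjusted p under 0.05 and libraries that did not overlap, all lower at 100 µM, and 1 of 8, DKC1, passed after adjustment. NOP56, a core scaffold protein of box C/D snoRNPs (gene 10528, chromosome 20, 2652632 to 2658393), had 157, 169 and 169 TPM in the control, 138, 139 and 136 TPM at 50 µM and 114, 116 and 76.8 TPM at 100 µM. The replicate that stands apart gave the lowest value, and the order of the groups did not rest on it. NOP56 fell 1.55-fold at 100 µM (-0.63 ± 0.118, edgeR adjusted p = 0.00693), and by 0.48 on the log2 scale without that replicate (edgeR adjusted p = 0.000611).

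NOLC1 encodes a nucleolar phosphoprotein that chaperones snoRNPs (gene 9221, chromosome 10, 102152370 to 102163870). Its levels were 145, 154 and 148 TPM in the control, 111, 124 and 109 TPM at 50 µM and 110, 98.3 and 84.8 TPM at 100 µM. Both doses lay below the control, and in TPM they overlapped each other. It fell 1.25-fold at 50 µM (-0.32 ± 0.0815, edgeR adjusted p = 0.0343) and 1.46-fold at 100 µM (-0.55 ± 0.0817, edgeR adjusted p = 0.00257). With all libraries NOLC1 is the 1 snoRNP gene called at 50 µM. Without both libraries that stand apart, NOP56 and RRP9 were also lower there, when 28.9% of all genes were. The NOLC1 call at 50 µM ended when any 1 of 5 libraries was left out: control replicate 2 or 3, with edgeR adjusted p of 0.158 and 0.144, or 50 µM replicate 1 (0.135), 2 (0.0762) or 3 (0.146).

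FBL, the methyltransferase of box C/D snoRNPs and the most abundant of the 8, was near its control level at 50 µM. It had 510, 471 and 509 TPM in the control, 494, 493 and 498 TPM at 50 µM, and 407, 405 and 392 TPM at 100 µM. Control and 50 µM overlapped, with 100 µM below both, and the difference between the doses was -0.29 (edgeR adjusted p = 0.0515). It fell 1.18-fold at 100 µM (-0.24 ± 0.0714, edgeR adjusted p = 0.0404), a call that 9 of 21 alternatives kept. Leaving out any single library other than 100 µM replicate 3 ended it, with an edgeR adjusted p of 0.164 without control replicate 3. Among the H/ACA proteins, DKC1, the pseudouridine synthase, averaged 195 ± 6.37 TPM in the control, 186 ± 9.49 TPM at 50 µM and 146 ± 11.4 TPM at 100 µM (SD, n = 3 each). Its level at 100 µM was 1.28-fold below the control (edgeR adjusted p = 0.00892) and 1.27-fold below that at 50 µM (edgeR adjusted p = 0.0334). GAR1 fell 1.27-fold at 100 µM (edgeR adjusted p = 0.041), and RRP9, which binds the U3 snoRNA, 1.41-fold (edgeR adjusted p = 0.0142). NOP58 and NHP2 did not pass the test, with log2 fold changes at 100 µM of -0.27 ± 0.0868 and -0.15 ± 0.0747.

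The small subunit assembly factors held 4 of the 6 genes that fell at 50 µM. At 100 µM 13 of the 15 fell (median -0.48), and at 50 µM 4 of 15 did (median -0.22), with all 15 log2 fold changes negative at both doses. Without both libraries that stand apart, all of the 15 but WDR43, WDR75 and NOC4L were lower at 50 µM, when 28.9% of all genes were. HEATR1 encodes a very large scaffold of the small subunit processome that is also needed for transcription of the ribosomal RNA precursor (gene 55127, chromosome 1, 236540094 to 236604516). It had 28.1, 29.3 and 29.5 TPM in the control, 16.9, 18.4 and 17.3 TPM at 50 µM, and 15.8, 13.7 and 14.7 TPM at 100 µM. Replicates of a group differed by little, and most of the fall was already there at 50 µM. HEATR1 fell 1.59-fold at 50 µM (-0.67 ± 0.0794, edgeR adjusted p = 0.00381) and 1.88-fold at 100 µM (-0.91 ± 0.0798, edgeR adjusted p = 0.000261).

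UTP20, another very large processome protein, behaved likewise. Its levels were 14.2, 15.8 and 16.8 TPM in the control, 9.15, 9.64 and 8.9 TPM at 50 µM, and 9.74, 8.36 and 7.1 TPM at 100 µM, so that the 2 doses overlapped below the control. It fell 1.63-fold at 50 µM (-0.70 ± 0.102, edgeR adjusted p = 0.00696; 0.0544 without 50 µM replicate 3) and 1.78-fold at 100 µM (-0.83 ± 0.103, edgeR adjusted p = 0.00116). TSR1, a GTPase-like factor that holds late small subunit precursors, had 73.8, 78.7 and 79.8 TPM in the control, 57.9, 60.3 and 55.4 TPM at 50 µM and 57.6, 54.3 and 47.8 TPM at 100 µM. Both doses again lay below the control and close to each other. TSR1 fell 1.29-fold at 50 µM (edgeR adjusted p = 0.0179) and 1.39-fold at 100 µM (edgeR adjusted p = 0.00275). At 50 µM its call ended in the absence of control replicate 2 or 3, with edgeR adjusted p of 0.0976 and 0.095, or of 50 µM replicate 1 (0.0814), 2 (0.065) or 3 (0.0938). Between the doses UTP20 and TSR1 differed by -0.13 and -0.11, neither past the threshold (edgeR adjusted p = 0.501 and 0.407).

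PNO1 and NOB1 act together at the last step, in which NOB1, an endonuclease, cuts the 3′ end of 18S ribosomal RNA. PNO1 (gene 56902, chromosome 2, 68157888 to 68177581) had 67.4, 67.0 and 70.7 TPM in the control, 53.2, 53.9 and 52.0 TPM at 50 µM and 45.2, 40.1 and 34.2 TPM at 100 µM. The 3 groups were separate. PNO1 fell 1.23-fold at 50 µM (-0.30 ± 0.0809, edgeR adjusted p = 0.0414) and 1.64-fold at 100 µM (-0.72 ± 0.0815, edgeR adjusted p = 0.000853), and was 1.33-fold lower at 100 than at 50 µM (edgeR adjusted p = 0.0263). Its call at 50 µM was the least stable of the 6: omitting control replicate 2 or 3 gave edgeR adjusted p of 0.144 and 0.182, omitting 100 µM replicate 2 gave 0.0557, and omitting 50 µM replicate 1, 2 or 3 gave 0.136, 0.126 and 0.147. NOB1, the most abundant of the 15, had 106, 117 and 118 TPM in the control, 95.0, 97.2 and 98.8 TPM at 50 µM and 78.7, 77.7 and 84.3 TPM at 100 µM. The order of the groups was the same as for PNO1. NOB1 fell 1.35-fold at 100 µM (-0.43 ± 0.0919, edgeR adjusted p = 0.011), with 0.0539 and 0.0583 when control replicate 2 or 3 was omitted, and did not pass at 50 µM (-0.17, edgeR adjusted p = 0.22).

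**Figure D3:**
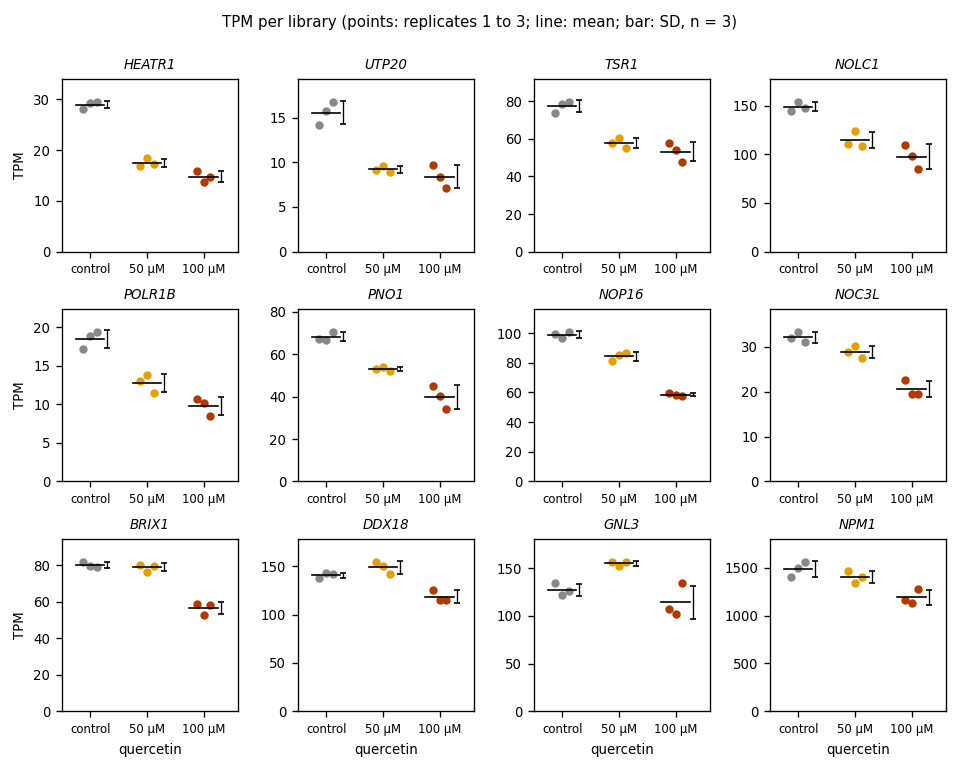
TPM in each library for 12 of the genes, in the control and at 50 and 100 µM quercetin; points are replicates 1 to 3, lines the mean and bars the SD (n = 3). HEATR1, UTP20, TSR1 and NOLC1 are already low at 50 µM; NOP16, NOC3L, BRIX1 and DDX18 are lower at 100 µM than at 50 µM; GNL3 is highest at 50 µM.

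The remaining small subunit factors fell at 100 µM by 1.26-fold to 1.5-fold where they passed. UTP4, UTP15, WDR43 and WDR75 belong, with HEATR1, to the subcomplex that joins the precursor first. Of these, UTP15 fell most (-0.58 ± 0.0952, edgeR adjusted p = 0.00368) and WDR75 least (-0.34 ± 0.105, edgeR adjusted p = 0.0469). WDR43 was also lower at 100 µM than at 50 µM (55.1 ± 5.64 TPM at 100 µM, 69.9 ± 4.04 TPM at 50 µM, SD, n = 3 each; edgeR adjusted p = 0.045). DDX10, a DEAD-box RNA helicase, fell by 0.55 on the log2 scale, BYSL by 0.41 and RRP12 by 0.56. NOP14 fell by 0.54 with a wide standard error of 0.161, its 3 libraries at 100 µM being 44.5, 44.8 and 26.8 TPM. Its binding partner NOC4L (-0.34 ± 0.157) and the helicase DDX52 (-0.27 ± 0.136) did not pass, and for both the groups overlapped.

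Most of the large subunit assembly factors fell at 100 µM, and with all libraries none passed the edgeR test at 50 µM. At 100 µM 12 of the 15 fell (median -0.50), and in 15 of 15 the libraries at 100 µM lay below all controls. At 50 µM 0 of 15 passed the edgeR test with all libraries. Of the 15, 8 had an unadjusted p under 0.05 and were lower, DESeq2 called 2 and limma-voom 0, and 4 log2 fold changes were positive. Without both libraries that stand apart, PES1, RRS1, PPAN, NOP2, NOP16, NIP7, NOC2L, RRP1B, DDX56 and URB2 were lower and WDR12 was higher. Of all genes 28.9% were lower and 57.4% called in that setting. This group held 6 of the 10 genes called between the doses. NOP16, a factor of early large subunit precursors (gene 51491, chromosome 5, 176383937 to 176388606), had 99.2, 96.4 and 101 TPM in the control, 81.2, 85.2 and 86.6 TPM at 50 µM, and 59.8, 58.2 and 57.7 TPM at 100 µM. The gap between 50 and 100 µM was larger than that between control and 50 µM, and each group was narrow. NOP16 fell 1.61-fold at 100 µM (-0.69 ± 0.0789, edgeR adjusted p = 0.000864) and was 1.42-fold lower than at 50 µM (-0.51 ± 0.0789, edgeR adjusted p = 0.012). The difference between the doses was called in 18 of 21 alternatives, the 3 exceptions being those without 1 library at 50 µM.

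NOC3L (gene 64318, chromosome 10, 94314907 to 94362959), which escorts large subunit precursors with NOC2L, had 31.9, 33.4 and 31.1 TPM in the control, 28.8, 30.1 and 27.5 TPM at 50 µM, and 22.6, 19.6 and 19.4 TPM at 100 µM. It, too, took its larger step between the doses. NOC3L fell 1.5-fold at 100 µM (-0.58 ± 0.0754, edgeR adjusted p = 0.00135) and was 1.4-fold lower than at 50 µM (edgeR adjusted p = 0.0122). BRIX1, which takes part in 28S ribosomal RNA maturation, averaged 80.3 ± 1.54 TPM in the control, 78.9 ± 2.18 TPM at 50 µM and 56.8 ± 3.29 TPM at 100 µM. It was 1.35-fold lower at 100 µM than in the control (edgeR adjusted p = 0.00777), with a log2 fold change of 0.032 at 50 µM.

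The PeBoW complex of PES1, BOP1 and WDR12, needed for processing of the large subunit precursor, was called unevenly. BOP1 averaged 93.6 ± 3.42 TPM in the control, 91.4 ± 4.56 TPM at 50 µM and 63.4 ± 11.2 TPM at 100 µM, and fell 1.41-fold against control (edgeR adjusted p = 0.0128) and 1.45-fold against 50 µM (edgeR adjusted p = 0.0308). WDR12 had 17.2, 13.9 and 13.8 TPM in the control, 16.3, 16.9 and 15.7 TPM at 50 µM and 10.4, 9.32 and 12.3 TPM at 100 µM. It was 1.51-fold lower at 100 than at 50 µM (-0.59 ± 0.135, edgeR adjusted p = 0.044), while the difference from the control, -0.41 ± 0.135, gave an edgeR adjusted p of 0.0575. PES1 did not pass at 50 µM (-0.26 ± 0.107) or at 100 µM (-0.33 ± 0.107), and its difference between the doses was -0.063. Whether the 3 genes differ from one another was not tested.

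DDX18, a DEAD-box helicase and, over all 9 libraries, the most abundant of the 15, had 138, 143 and 142 TPM in the control, 155, 150 and 142 TPM at 50 µM, and 126, 115 and 115 TPM at 100 µM. In TPM 50 µM replicate 3 lay inside the control range and the other 2 libraries at 50 µM above it; in TMM-scaled counts all 3 lay above. Those at 100 µM lay below the control in both. It was 1.25-fold lower at 100 than at 50 µM (-0.32 ± 0.0716, edgeR adjusted p = 0.0427), and differed from the control by 0.14 at 50 µM and -0.18 at 100 µM, neither past the test. RRS1, which helps to dock the 5S ribonucleoprotein, had the most negative log2 fold change of the 50 at 100 µM (-0.92 ± 0.173, edgeR adjusted p = 0.00688), with 90.8, 88.0 and 50.2 TPM at 100 µM, against 131, 161 and 158 TPM in the control. Without 100 µM replicate 3 it was -0.72 (edgeR adjusted p = 0.000363). URB2 fell by 0.76 on the log2 scale and NOP2, a ribosomal RNA methyltransferase, by 0.64, both with the lowest value in that replicate (5.31 and 48.6 TPM). Without it they fell by 0.56 and 0.44 (edgeR adjusted p = 0.014 and 0.0108). DDX56, PPAN, RRP1B, NIP7 and NOC2L fell by 0.54, 0.50, 0.48, 0.47 and 0.32.

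Among the nucleolar proteins of wider function 4 of 6 fell at 100 µM, DDX21, LYAR, NCL and MYBBP1A. At 50 µM 0 of 6 passed the edgeR test with all libraries, where 2 were lower and 1 higher at an unadjusted p under 0.05. DESeq2 called 2 lower and limma-voom 0. Without both libraries that stand apart, NCL, LYAR, DDX21 and MYBBP1A were lower and GNL3 was higher at 50 µM. Of all genes 28.9% were lower and 57.4% called in that setting. DDX21, a helicase that links ribosomal RNA synthesis and processing (gene 9188, chromosome 10, 68956125 to 68985068), had 154, 172 and 167 TPM in the control, 141, 148 and 126 TPM at 50 µM, and 124, 108 and 93.0 TPM at 100 µM. The groups followed the dose without overlap. DDX21 fell 1.46-fold at 100 µM (-0.54 ± 0.0948, edgeR adjusted p = 0.00503). LYAR, a zinc finger protein of the nucleolus, had 63.0, 57.2 and 55.0 TPM in the control, 44.8, 49.0 and 48.0 TPM at 50 µM, and 44.8, 40.6 and 40.7 TPM at 100 µM, and fell 1.32-fold at 100 µM (-0.41 ± 0.0795, edgeR adjusted p = 0.00811). NCL, or nucleolin, fell by 0.33 and MYBBP1A by 0.44.

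NPM1, or nucleophosmin, was by far the most abundant of the 50. It had 1405, 1503 and 1567 TPM in the control, 1465, 1346 and 1409 TPM at 50 µM, and 1164, 1134 and 1280 TPM at 100 µM. In TPM the libraries at 100 µM lay below all others, although in the scaled counts behind the test they overlapped the control, and the difference was -0.26 ± 0.103, with an edgeR adjusted p of 0.1. Without 100 µM replicate 3 it was -0.35 (edgeR adjusted p = 0.00759).

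GNL3, or nucleostemin, a GTPase that shuttles between nucleolus and nucleoplasm, had the highest log2 fold change of the 50 at 50 µM. It had 134, 122 and 126 TPM in the control, 157, 152 and 156 TPM at 50 µM, and 107, 102 and 134 TPM at 100 µM. The 3 libraries at 50 µM lay above all 6 others, and 100 µM replicate 3 lay at the top of the control range. The difference at 50 µM was 0.34 ± 0.126 (edgeR adjusted p = 0.106, and 0.0021 without 100 µM replicate 3). At 100 µM it was -0.079 ± 0.127 (edgeR adjusted p = 0.683), the smallest of the 50, and -0.25 without that replicate (edgeR adjusted p = 0.017). In TMM-scaled counts GNL3 is 1 of 9 genes with their highest mean at 50 µM.

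Over the 3 comparisons, with all libraries, 26 genes fell at 100 µM against the control alone and passed in no other comparison. A further 6 were at 100 µM below both other groups (DKC1, WDR43, BOP1, BRIX1, NOP16 and NOC3L), 4 were lower than control at both doses with no call between them (NOLC1, HEATR1, UTP20 and TSR1), 2 passed in all 3 (POLR1B and PNO1) and 2 passed between the doses alone (WDR12 and DDX18). The 10 genes that passed in none with all libraries were POLR1A, POLR1C, UBTF, NOP58, NHP2, NOC4L, DDX52, PES1, NPM1 and GNL3. Without both libraries that stand apart, all of these but UBTF passed in some comparison. In that setting 57.4%, 48.6% and 47.3% of all genes were called at 50 µM, at 100 µM and between the doses. Passing in one comparison and missing in another does not show a difference between doses, which the third comparison tests.

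Genes with longer transcripts tended to be lower at 50 µM. Across the 50 genes, effective transcript length and log2 fold change had a Spearman correlation of -0.44 at 50 µM and -0.28 at 100 µM. Across the 11450 tested genes with a length it was -0.29 and -0.15, so a relation of the same sign was present across all genes. Between 100 and 50 µM its sign turned, to 0.22 for the 50 genes and 0.16 for all. HEATR1 and UTP20 have effective lengths of 8408 and 8982 bases, against a median of 2522 bases for the 50 genes and 2954 bases for all genes tested. POLR1A, the longest of the 50 genes at 12427 bases, had a difference of -0.49 at 50 µM, not past the test with all libraries. WDR12, at 8015 bases, had a positive difference of 0.18 at 50 µM, and NOP16, at 812 bases, fell at 100 µM as strongly as most long genes. At 100 µM the 25 shorter genes had a median log2 fold change of -0.43 and the 25 longer ones -0.48; at 50 µM these were -0.17 and -0.26. The part of transcript length in these results was not tested, and the genes are not independent replicates.

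**Figure D4:**
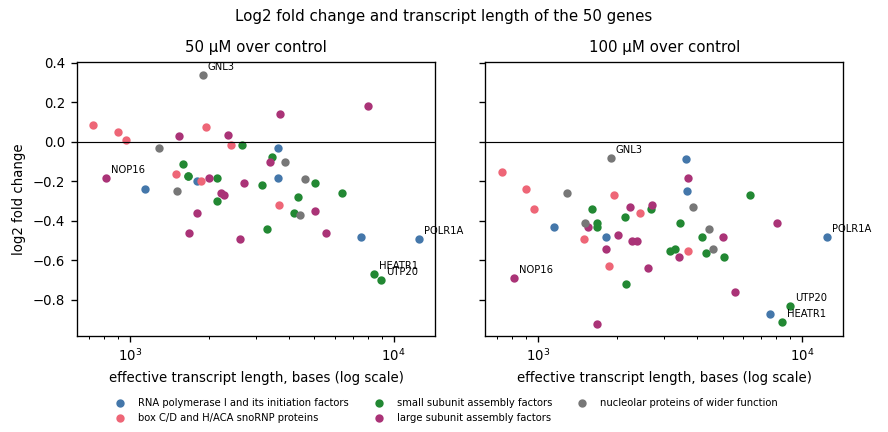
Log2 fold change of each of the 50 genes against its effective transcript length in bases (log scale), at 50 µM and 100 µM over control, coloured by role. At 50 µM HEATR1 and UTP20, near 8408 and 8982 bases, lie lowest; at 100 µM genes of all lengths lie below 0.

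Other genes of the same pathway were taken from lists chosen by function. Of 52 further snoRNP and small subunit processome genes 19 were lower at 100 µM over control (median -0.23), and of 48 further large subunit factors 21 were lower and 1 higher (median -0.26). The shares lower were 36.5% and 43.8%, where 10.3% of all genes tested were lower. WDR36 and AATF, both processome factors, fell by 0.51 and 0.52 at 100 µM (edgeR adjusted p = 0.00408 and 0.00499). PAK1IP1, which acts on early large subunit precursors, had 97.1, 95.1 and 98.1 TPM in the control, 92.4, 94.3 and 85.4 TPM at 50 µM and 59.3, 54.3 and 53.3 TPM at 100 µM. It fell by 0.74 against control (edgeR adjusted p = 0.00041) and by 0.69 against 50 µM (edgeR adjusted p = 0.00241). Of 24 genes of the nuclear exosome and RNase MRP/P 7, or 29.2%, were lower (median -0.24). POP1, a protein of RNase MRP, which cuts the ribosomal RNA precursor, had 33.6, 35.4 and 38.4 TPM in the control, 30.1, 30.3 and 31.3 TPM at 50 µM and 19.2, 18.4 and 17.9 TPM at 100 µM (-0.84 at 100 µM over control, edgeR adjusted p = 0.00018).

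Of the other subunits and factors of RNA polymerase I 2 of 14, POLR1G and TAF1B, were lower at 100 µM, and the median of the 14 was 0.043. That share of 14.3% lay near the 10.3% of all genes tested. Of 22 RNA polymerase III subunits 7, or 31.8%, were lower and 1 was higher (median -0.30). Among those lower was POLR3B, which fell by 0.65 (edgeR adjusted p = 0.00208). Of 7 subunits specific to RNA polymerase II 1, POLR2D, was lower, or 14.3% (median -0.0037). These shares were not tested against each other. At 50 µM 5 of the 52 further snoRNP and processome genes were lower, or 9.62%, as were 3 of the 48 large subunit factors, or 6.25%, and 2 of the 22 polymerase III subunits, or 9.09%. These shares lay near the 6.31% of all genes that were lower, and 1 of the 14 further polymerase I genes was higher. By the edgeR test 0 of the 24 exosome and RNase MRP/P genes passed at 50 µM (5 lower and 3 higher at an unadjusted p under 0.05, 3 lower by DESeq2, 0 by limma-voom). Likewise 0 of the 7 polymerase II subunits passed (1 lower at an unadjusted p under 0.05, 1 lower by DESeq2, 0 by limma-voom).

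**Figure D5:**
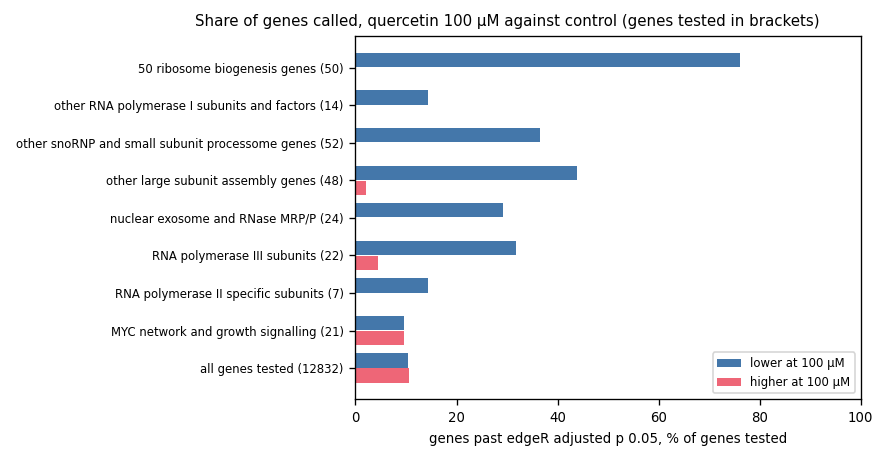
Share of the tested genes in each list that passed the edgeR test at 100 µM over control, lower (blue) and higher (red), with the number tested in brackets. The 50 genes (38 lower) lie above the further assembly factor lists (19 of 52 and 21 of 48 lower) and all genes tested (10.3% lower, 10.7% higher).

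MYC, a transcription factor known to drive many ribosome biogenesis genes, was itself lower at the higher dose. It had 77.1, 74.8 and 65.6 TPM in the control, 70.4, 78.8 and 71.9 TPM at 50 µM, and 56.5, 54.3 and 53.3 TPM at 100 µM. MYC fell by 0.34 against control (edgeR adjusted p = 0.0142) and by 0.42 against 50 µM (edgeR adjusted p = 0.0201), and did not differ past the test at 50 µM (0.083). Of 21 genes of its network and of growth signalling 2 were lower and 2 higher at 100 µM. That is 9.52% lower and 19.0% called, near the 10.3% and 21.0% of all genes tested. MXD4, which competes with it for MAX, rose at both doses, by 0.95 at 50 µM and 1.29 at 100 µM (edgeR adjusted p = 0.0196 and 0.00297).

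Promoter windows were available for 40 of the 50 genes, from 250 bases before to 50 after a start site, in RefSeq's GRCh38.p14. They are shown as a description, and any part of a motif in the levels was not tested. The E-box that MYC and MAX bind, CACGTG, which reads the same on both strands, was in the windows of 16 of the 40 genes, or 40.0%, against 12.6% of the 10525 tested genes with a window. The ETS core CCGGAAG, searched on both strands, was also in 16 of the 40, against 22.2%. The palindromic NRF1 motif was in 4 of the 40, or 10.0%, against 2.67%, and TATAAA, on both strands, was in 1, UTP20, or 2.5%, against 8.89%. Matches of different motifs were counted separately, whether or not they overlapped. The E-boxes lay close to the start: 5 began before it, by 5 to 64 bases, and 11 after it, by 4 to 36 bases. Windows of 30 bases around the E-box are given for 8 of the 16, 5′ to 3′ on the gene's strand, with the E-box in capitals.
FBL (chr19:39846356-39846385, minus strand): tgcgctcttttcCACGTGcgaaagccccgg
RRP9 (chr3:51941892-51941921, minus strand): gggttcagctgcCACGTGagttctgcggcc
PNO1 (chr2:68157885-68157914, plus strand): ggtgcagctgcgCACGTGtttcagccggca
UTP20 (chr12:101280083-101280112, plus strand): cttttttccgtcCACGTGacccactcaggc
WDR43 (chr2:28894658-28894687, plus strand): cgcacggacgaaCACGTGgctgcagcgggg
NOC3L (chr10:94362903-94362932, minus strand): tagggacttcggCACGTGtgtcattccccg
GNL3 (chr3:52686026-52686055, plus strand): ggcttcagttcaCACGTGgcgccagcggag
LYAR (chr4:4290068-4290097, minus strand): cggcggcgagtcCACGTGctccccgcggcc

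Values with and without the E-box are set side by side, and their difference was not tested. At 100 µM over control the median log2 fold change was -0.43 for the 16 genes with it and -0.43 for the 24 without it, with 14 of 16 and 17 of 24 called lower; at 50 µM the medians were -0.19 and -0.18, and between the doses -0.27 and -0.24. Among the strongest falls at 100 µM in genes with a window, UTP20 (-0.83), PNO1 (-0.72) and NOP2 (-0.64) have an E-box. HEATR1 (-0.91), POLR1B (-0.87) and NOP16 (-0.69) do not, and GNL3, which differed least, has one. The 250 bases before the start are printed for HEATR1 and POLR1B, with any ETS core in capitals, on either strand; the window of HEATR1 has neither motif.
POLR1B (chr2:112541786-112542035, plus strand): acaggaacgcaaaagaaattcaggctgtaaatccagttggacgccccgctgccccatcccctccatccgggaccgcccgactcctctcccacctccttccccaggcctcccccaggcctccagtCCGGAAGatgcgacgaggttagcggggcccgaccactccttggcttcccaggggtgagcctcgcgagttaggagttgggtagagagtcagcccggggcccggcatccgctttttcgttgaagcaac
HEATR1 (chr1:236604517-236604766, minus strand): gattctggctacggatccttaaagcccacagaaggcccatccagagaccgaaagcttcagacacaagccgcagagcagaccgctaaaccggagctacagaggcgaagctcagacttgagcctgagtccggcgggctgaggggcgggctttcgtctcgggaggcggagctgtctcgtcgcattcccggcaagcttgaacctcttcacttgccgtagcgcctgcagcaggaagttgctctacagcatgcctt

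A match is a description of the letters in these windows and not evidence of binding, and no binding was measured.

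The authors' deposited table holds their own tests of the same comparisons. In the authors' deposited table, at a q under 0.05, 20 of the 50 genes were lower and 1 higher at 50 µM, 28 lower and 0 higher at 100 µM, and 15 lower and 0 higher at 100 µM against 50 µM, where 22.4%, 11.2% and 5.86% of all genes passed. The signs of that table's log2 fold changes were the same as those of the edgeR fit for 99.2% to 99.8% of all genes.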

How the data were processed

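RNA sequencing of 9 HCCLM3 samples was used. Per the labels' protocols, RNA was extracted with Trizol, bound to oligo(dT) beads, and libraries were treated with duplex-specific nuclease, which can compress differences in abundance. RSEM 1.2.12, HISAT2 2.0.4, Bowtie2 2.2.5 and the build GRCh38.p13 are named, without roles, per the submitters' processing notes. No source used here states whether reads were counted by strand. Per the file headers, the authors made estimated counts for each gene in each library, deposited beside TPM and FPKM. The deposited table also holds DESeq2 results: a log2 fold change, a p-value and a q-value for each comparison.

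Estimated counts were rounded. edgeR 4.0.16 (limma 3.58.1, R 4.3.3) filterByExpr with a minimum count of 10, total of 15 and share of 0.7 kept 12832 genes and removed 4660. After TMM scaling, all 9 libraries entered 1 fit with a term per group and were tested by the robust quasi-likelihood F test, two-sided, and p-values were adjusted by Benjamini-Hochberg across the tested genes. The biological coefficient of variation was 14.4%, and log2 fold changes had a median standard error of 0.134. Standard errors are the log2 fold change over the square root of F. Levels are TPM, which compare genes per length; overlap between groups was judged on TMM-scaled CPM. Alternatives included DESeq2 1.42.0, other scalings, limma on log2(TPM + 1) and log2(TPM + 0.1), limma on FPKM, no filter, 2 groups alone, a replicate block and leaving out libraries. The procedures were tested on counts simulated from the means and spread of these data. At 50 µM, at 100 µM and between the doses, edgeR recovered 36.1%, 39% and 33% of 1.5-fold changes. For 2-fold changes it recovered 83%, 80.8% and 64.3%. Many changes of 1.5-fold or less would therefore not pass the test. Positions are the authors' where they lay near RefSeq's for the same gene identifier; other genes are given without one. Genes with full values were taken by a rule: the 2 lowest p at 100 µM and the most abundant in each role, all called at 50 µM, any called in the minority direction, and the highest p. For other lists the 2 lowest p were eligible. The 50 genes, lists, rule and alternatives were chosen with earlier results of these data known.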

Additional observations from a re-analysis of the deposited data

Results flagged for a closer look

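For 10 genes the response differed between the doses, by the test of 100 µM against 50 µM itself (edgeR adjusted p under 0.05). On the log2 scale the differences, 100 µM minus 50 µM, were -0.59 for WDR12, -0.53 for BOP1, -0.51 for NOP16, -0.48 for NOC3L, -0.46 for BRIX1, -0.41 for PNO1, -0.39 for POLR1B, -0.34 for DKC1, -0.34 for WDR43 and -0.32 for DDX18. In each, all 3 libraries at 100 µM lay below all 3 at 50 µM, which adds no support, since the same libraries gave the calls. With any 1 library at 50 µM left out, 0 of the 10 calls were kept, when 0.331% to 0.516% of all genes were called. Of these, NOP16 was called in 18 of 21 alternatives, NOC3L in 17, BRIX1 in 14 and POLR1B in 6. PNO1, BOP1 and WDR12 kept the call in 11 each, DKC1 in 10, and WDR43 and DDX18 in 9 each. Both comparisons against control share these libraries, and the 3 groups share 1 estimate of the spread.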

How the results depend on the processing

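The median log2 fold change of the 50 genes kept its direction in every alternative run, and leaving out 1 library moved it between -0.25 and -0.15 at 50 µM over control, -0.52 and -0.41 at 100 µM over control, and -0.29 and -0.25 at 100 µM over 50 µM. Numbers of calls moved more. Genes lower at 50 µM were 6 in the analysis as reported. They were 11 by DESeq2, 21 with the 2 groups alone and 34 without both libraries that stand apart. Of all genes 7.69%, 18.0% and 28.9% were lower in these settings. Genes higher were 1 and 2 in the last 2 settings, when 33.9% and 57.4% of all genes were called. Genes lower at 100 µM, 38, were 20 with the 2 groups alone and 47 without both libraries, when 3.45% and 24.4% of all genes were lower. Genes lower at 100 µM than at 50 µM, 10, were 22 by DESeq2 and 2 with the 2 groups alone, when 3.97% and 0.559% of all genes were lower. They were 5 with limma on log2(TPM + 1) or log2(TPM + 0.1), when 1.5% and 1.49% were lower. Without both libraries they were 30, with 1 higher, when 22.7% of all genes were lower. Leaving out 1 library gave 1 to 21, 19 to 39 and 0 to 24 genes lower, and 0 to 1, 0 and 0 higher. The share of all genes that were lower then ran from 0.331% to 18.2%, 3.52% to 14.6% and 0.0924% to 13.4%. The summed level at 50 µM differed from the control by -5.68% in FPKM and -10.1% in TPM. Deviations of same-numbered libraries from their group means correlated from -0.52 to 0.35. Only for replicate 1 at 50 and 100 µM (0.11) was the own number the best match. These values cannot decide whether replicate numbers pair the samples, since a library stands apart in the control and at 100 µM. With the replicate block 2, 27 and 1 genes were lower at 50 µM, at 100 µM and between the doses. Of all genes 1.78%, 6.07% and 0.218% were lower with that block. Signs turned for FBL at 50 µM with limma on TPM (-0.0049 with either pseudocount) and for GNL3 at 100 µM (0.00031 and 0.008 without 100 µM replicate 1 or 2). For NPM1 at 50 µM the value was 0.005 with upper-quartile scaling, 0.028 without control replicate 3, 0.015 without 50 µM replicate 2 and -0.085 without both libraries that stand apart. None of these was called, and the cause of the changes was not tested.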
